A study of Homo sapiens with 12 samples.

Results

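IL6, IL11, LIF and CLCF1, which encode cytokines of the interleukin-6 family, and IL6R, IL6ST, OSMR and LIFR, which encode chains of their receptors, were followed in HNSCC (squamous carcinoma of the head and neck) cells with and without silencing of MUC1. These 8 genes were selected by symbol from the 39368 symbols in the count tables, and all 8 had enough counts to be tested in both cell lines. The CAL27 and HSC3 lines used are HPV-negative, carry a lentiviral shRNA against MUC1 under doxycycline (DOX) control (tet-MUC1shRNA) and were selected in puromycin. CAL27 cells were grown in DMEM and HSC3 cells in minimum essential medium, both with FBS. Vehicle groups received 0.10% DMSO and DOX groups 500 ng/mL DOX, in each case for 7 days, and each of the 4 groups has 3 libraries. All 12 libraries carried the MUC1 shRNA. No DOX-treated cells with a scrambled shRNA were analysed here, so silencing of MUC1 cannot be told apart from what DOX or the shRNA does otherwise. The labels describe triplicate cultures without saying how they were kept apart, so the p-values measure the spread between these libraries, which may in part be technical.

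Cytokines of this family signal through receptor complexes that share the chain gp130, the product of IL6ST. IL6 and IL11 first bind receptors of their own, IL6R and IL11RA, and then engage gp130. LIF brings gp130 together with LIFR, and oncostatin M (OSM) can use either LIFR or OSMR beside gp130. CLCF1 acts through CNTFR, LIFR and gp130. Each complex activates JAK kinases and chiefly STAT3, which induces the feedback inhibitor SOCS3 together with acute phase genes. In squamous carcinomas IL6 and LIF are made by both tumour and stromal cells.

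Totals ran from 92866845 to 126328662 counts per library in CAL27 cells and from 89730914 to 169065103 in HSC3 cells. An estimated 2.45 to 3.33 counts stood for each molecule in CAL27 libraries. The estimate was 4.18 to 7.43 in HSC3 vehicle libraries and 8.93 to 17.2 in HSC3 DOX libraries. Differences between replicates can raise these estimates. By them, low counts in HSC3 cells rest on few molecules. MUC1 had 5753 to 8062 counts with vehicle and 285 to 419 with DOX in CAL27 cells, and 162 to 196 and 16 to 46 in HSC3 cells. As CPM, counts scaled to a common library size by TMM over all 12 libraries, the 8 squamous epithelial markers (KRT5, KRT14, KRT6A, KRT17, TP63, DSG3, SFN and CDH1) summed to 6400 to 6681 with vehicle and 3035 to 3242 with DOX in CAL27 cells. Their sums in the HSC3 line were 6392 to 7186 and 2975 to 3566. Of these markers, 6 of 8 fell with DOX in each line (edgeR adjusted p under 0.05). Over all genes, 21.8% fell in CAL27 and 15.4% in HSC3 cells. The part of these markers in the results below was not tested. The 5 leukocyte markers summed to 5.46 to 6.15 CPM with vehicle and 4.06 to 5.07 with DOX in the CAL27 line, and to 1.48 to 1.80 and 0.222 to 1.499 in the HSC3 line, with PTPRC at no more than 12 counts in any library. The sum of the 5 fibroblast markers was lower with DOX in the CAL27 line (13.4 to 14.1 and 10.2 to 10.6) and higher in the HSC3 line (4.20 to 4.999 and 5.97 to 9.34), where COL1A1 rose by 0.73 on the log2 scale (edgeR adjusted p = 0.0089) and DCN and COL1A2 were at 0. The 3 endothelial markers summed to 14.9 to 15.3 CPM with vehicle and 8.83 to 12.2 with DOX in the CAL27 line, mostly from CDH5. Their sums were 0.268 to 0.520 and 0.135 to 0.248 in the HSC3 line, mostly from VWF. The part of these shifts in the results below was not tested. In RNA from whole cultures, fewer cells expressing a gene and less RNA per cell cannot be told apart.

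Promoter sequence is shown for the 3 genes on which the comparisons turn, namely IL6, which rose in both lines, and IL11 and LIFR, which changed in opposite directions. RefSeq windows on GRCh38.p14, from 250 bases before to 50 bases after an annotated start, were found for 6 of the 8 genes, with 3 alternative starts for LIFR. The capitals mark a match to 1 of 3 motifs that were searched on both strands. In IL6 they mark the NF-kB consensus, at positions -73 to -64 from the start, on the plus strand. In IL11 they mark the AP-1 motif TGANTCA, at -96 to -90, which reads the same way on both strands. In 2 of the LIFR windows they mark the STAT motif TTCNNNGAA, at -165 to -157 and at -182 to -174 from the respective start.

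IL6, chr7:22726950-22727249, plus strand: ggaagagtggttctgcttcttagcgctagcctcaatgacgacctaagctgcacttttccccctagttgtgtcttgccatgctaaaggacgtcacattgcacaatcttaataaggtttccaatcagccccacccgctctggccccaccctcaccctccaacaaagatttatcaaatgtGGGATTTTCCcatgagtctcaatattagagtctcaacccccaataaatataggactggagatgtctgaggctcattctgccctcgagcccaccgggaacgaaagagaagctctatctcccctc
IL11, chr19:55370414-55370713, minus strand: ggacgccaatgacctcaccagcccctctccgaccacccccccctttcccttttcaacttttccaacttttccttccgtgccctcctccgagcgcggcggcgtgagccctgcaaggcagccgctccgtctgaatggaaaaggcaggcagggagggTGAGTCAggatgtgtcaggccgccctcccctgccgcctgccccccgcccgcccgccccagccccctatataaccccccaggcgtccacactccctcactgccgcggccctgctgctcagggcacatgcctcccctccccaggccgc
LIFR, chr5:38595356-38595655, minus strand: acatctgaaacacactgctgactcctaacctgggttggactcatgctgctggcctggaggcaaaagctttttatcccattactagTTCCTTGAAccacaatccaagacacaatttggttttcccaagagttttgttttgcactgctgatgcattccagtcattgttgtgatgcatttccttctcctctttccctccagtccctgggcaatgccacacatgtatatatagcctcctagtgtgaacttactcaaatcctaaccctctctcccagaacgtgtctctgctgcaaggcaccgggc
LIFR, chr5:38557418-38557717, minus strand: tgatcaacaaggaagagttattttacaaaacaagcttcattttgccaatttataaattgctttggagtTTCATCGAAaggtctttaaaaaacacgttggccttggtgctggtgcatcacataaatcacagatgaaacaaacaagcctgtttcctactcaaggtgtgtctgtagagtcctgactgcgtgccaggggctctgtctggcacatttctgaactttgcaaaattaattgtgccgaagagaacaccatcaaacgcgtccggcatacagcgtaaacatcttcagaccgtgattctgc

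Among the 35116 promoter windows in the table, 5.91% held the NF-kB consensus, 7.71% the AP-1 motif and 7.66% the STAT motif. These shares are per window, and LIFR had 3 windows. TGANTCA was also found in the windows of IL6R and OSMR, after the start. None of the 3 motifs was found in the window of IL6ST or in the remaining LIFR window, which is not printed. Each of the 4 windows shown held 1 match, so no matches overlapped. A match of letters is not evidence of binding, and counts per gene do not show which LIFR start was used.

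With vehicle, OSMR and IL6ST were the most abundant of the 8 transcripts in both lines, and IL6 and IL11 the least. Levels were compared between genes as CPM per kilobase of exon. In vehicle-treated CAL27 cells the order was OSMR at 27.7 ± 0.727 (SD, n = 3), IL6ST at 18.7 ± 0.502, LIFR at 6.54 ± 0.131, IL6R at 4.74 ± 0.0840, CLCF1 at 2.62 ± 0.256, LIF at 2.31 ± 0.157, IL6 at 0.612 ± 0.0131 and IL11 at 0.0742 ± 0.0198. Of the neighbours in that order, CLCF1 and LIF alone had overlapping libraries. In vehicle-treated HSC3 cells OSMR at 36.5 ± 1.62 (SD, n = 3) and IL6ST at 34.5 ± 2.09 overlapped. They were followed by IL6R at 14.4 ± 1.06, CLCF1 at 5.01 ± 0.466, LIFR at 3.25 ± 0.176, LIF at 1.48 ± 0.0579, IL11 at 0.535 ± 0.0986 and IL6 at 0.479 ± 0.161, and the libraries of IL11 and IL6 overlapped. With the length of the longest transcript in place of all exons, IL6 came before IL11 in that group.

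**Figure D1:**
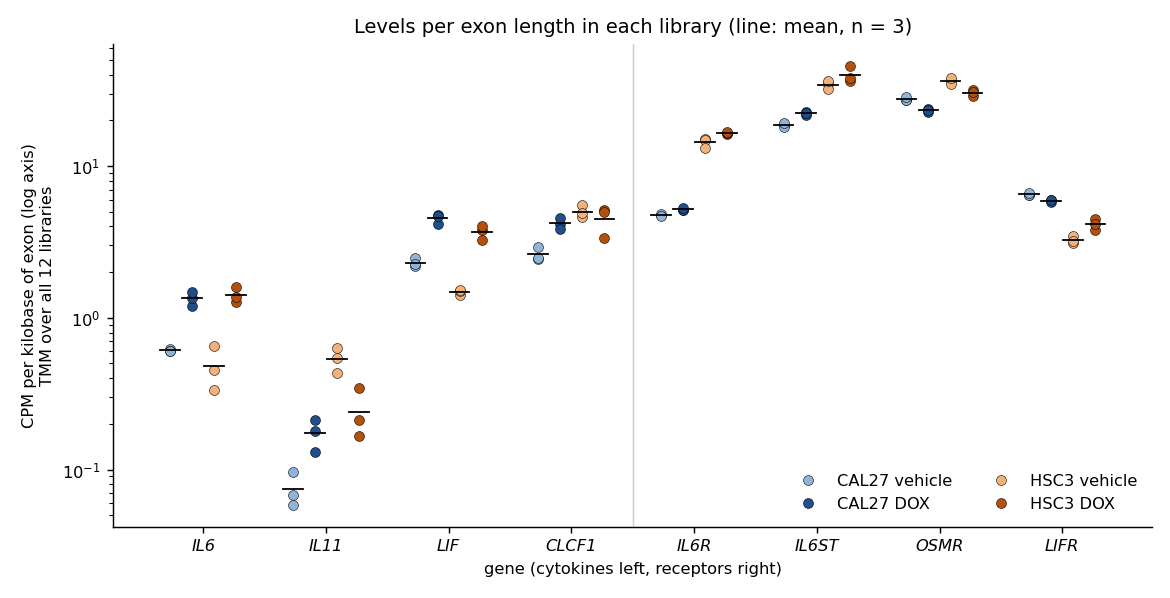
Level of each gene in each of the 12 libraries as CPM per kilobase of exon, on a log axis, with the group mean as a line. OSMR and IL6ST are the highest in all 4 groups and the cytokine IL11 lies below 1 CPM per kilobase throughout.

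The lines differed at baseline in 7 of the 8 genes, with 5 higher and 2 lower in HSC3 cells (edgeR adjusted p under 0.05 in 1 fit of all 12 libraries). Of all 20694 genes tested 62.9% differed, 30.6% higher and 32.3% lower. Past FC>2 as well were IL11 and IL6R, higher, and LIFR, lower, against 13.2% and 18.7% of all genes. The line cannot be told apart from its medium, its library preparation and its sequencing. Libraries of the vehicle groups did not overlap for 7 of the 8 genes, 5 higher and 2 lower in HSC3 cells, against 74.3% of all genes, 34.2% higher and 40.1% lower. IL11 was 7.20-fold higher in HSC3 cells, a log2 difference of 2.85 (SE, the standard error, 0.38, edgeR adjusted p = 7.4e-06). IL6R was 3.05-fold higher, at a log2 difference of 1.61 (SE 0.057, edgeR adjusted p = 1.5e-12). CLCF1 at 0.93, IL6ST at 0.89 and OSMR at 0.40 were also higher on the log2 scale. LIFR was lower in HSC3 cells, with a log2 difference of -1.01 (SE 0.063, edgeR adjusted p = 1.2e-09), and LIF was lower at -0.64 (SE 0.10, edgeR adjusted p = 4.4e-05). For IL6 the difference was -0.35 (95% interval -0.76 to 0.069, edgeR adjusted p = 0.14). It passed the test at -0.64 (edgeR adjusted p = 0.0054) without HSC3 vehicle replicate 1, and at -0.62 (edgeR adjusted p = 0.013) with library totals, under which the median of all genes moved from -0.12 to -0.39.

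With DOX, IL6 and LIF rose in both lines and OSMR fell in both. IL11 rose in CAL27 and fell in HSC3 cells, LIFR fell in CAL27 and rose in HSC3 cells, and CLCF1, IL6R and IL6ST rose in CAL27 cells and did not pass the test in HSC3 cells. All 8 genes thus passed the test in CAL27 cells, 6 higher and 2 lower, where 44.5% of all 19239 genes tested did. In HSC3 cells 5 of 8 passed, 3 higher and 2 lower, against 28.4% of 18021. All 8 genes in CAL27 cells and 6 in HSC3 cells, without CLCF1 and IL6ST, had no overlap between DOX and vehicle libraries. Over all genes this held for 52.4% in CAL27 cells, 26.0% higher and 26.3% lower, and for 42.6% in HSC3 cells, 19.8% higher and 22.8% lower. The median over the 8 genes was 0.46 on the log2 scale in the CAL27 and 0.20 in the HSC3 line, against -0.0052 and -0.0097 over all genes. Among the 17164 genes tested in both lines, 7.82% were higher in both and 8.62% lower in both. A further 1.19% fell in CAL27 and rose in HSC3 cells, and 2.37% did the opposite. With a further threshold of FC>2, 2 genes in CAL27 cells (IL6 and IL11) and 3 in HSC3 cells (IL6, LIF and IL11) remained, where 1.31% of genes were higher and 5.11% lower in CAL27 cells, against 1.58% and 4.40% in HSC3 cells. For 1 gene, an exact permutation test of 3 against 3 cannot go below p = 0.1, so the p-values given here come from edgeR's two-sided quasi-likelihood test across all genes.

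**Figure D2:**
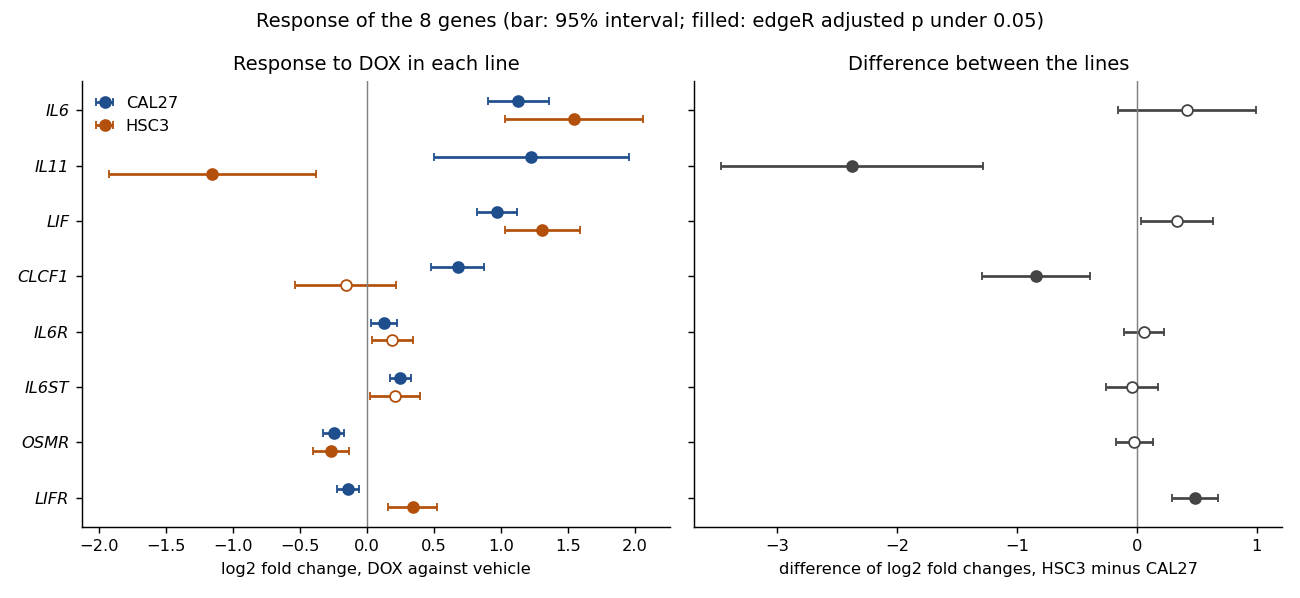
Log2 fold change with DOX for the 8 genes in each cell line (left) and the HSC3 response minus the CAL27 response (right), with 95% intervals and filled points where the edgeR adjusted p was under 0.05. IL6 and LIF lie right of 0 in both lines, while IL11 and LIFR lie on opposite sides.

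IL6 encodes the founding cytokine of the family, a driver of the acute phase response. The gene lies on chromosome 7 from 22725884 to 22732002, on the plus strand. In CAL27 cells IL6 was at 2.96, 2.90 and 2.88 CPM in the vehicle libraries and at 5.61, 6.48 and 7.07 CPM in the DOX libraries. All DOX libraries were above all vehicle libraries, and the rise was 2.19-fold (log2 fold change 1.13, SE 0.11, edgeR adjusted p = 3.7e-08). In HSC3 cells IL6 was at 2.57, 1.31 and 1.77 CPM with vehicle and at 6.19, 5.04 and 5.39 CPM with DOX. The groups were again apart although the vehicle libraries were spread, and the rise was 2.93-fold (log2 fold change 1.55, SE 0.23, edgeR adjusted p = 5.4e-04). The HSC3 counts of IL6 were 119 to 325 with vehicle and 717 to 1021 with DOX, which stand for an estimated 28.4 to 48.6 and 59.3 to 83.2 molecules. The promoter printed above holds the NF-kB consensus. IL6-AS1, which shares 9.91% of the exon positions of IL6 on the opposite strand, had log2 fold changes of 1.23 (edgeR adjusted p = 0.015) in the CAL27 and 0.90 (edgeR adjusted p = 0.63) in the HSC3 line. STEAP1B, which shares 1.06% of them, also on the opposite strand, rose as well. Its log2 fold changes were 1.01 (edgeR adjusted p = 0.0025) in the CAL27 and 1.91 (edgeR adjusted p = 1.0e-04) in the HSC3 line. Its unscaled counts were 47 to 55 with vehicle and 75 to 138 with DOX in CAL27 cells, and 71 to 112 and 389 to 500 in HSC3 cells.

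LIF encodes leukaemia inhibitory factor, which maintains stem cell states and acts through LIFR and gp130. The gene lies on chromosome 22 from 30240453 to 30246759, on the minus strand. LIF was at 10.5, 9.41 and 9.63 CPM with vehicle and at 20.2, 17.9 and 20.1 CPM with DOX in CAL27 cells. The HSC3 line had LIF at 5.01, 5.30 and 5.38 CPM with vehicle and at 11.3, 13.4 and 14.2 CPM with DOX. In both lines every DOX library was above every vehicle library. The rise was 1.96-fold in CAL27 cells (log2 fold change 0.97, SE 0.071, edgeR adjusted p = 8.4e-10) and 2.48-fold in HSC3 cells (log2 fold change 1.31, SE 0.13, edgeR adjusted p = 2.4e-05). LIF-AS2, which shares 2.14% of the exon positions of LIF on the opposite strand, had a log2 fold change of 1.08 (edgeR adjusted p = 0.00058) in CAL27 cells. The LIF baseline was lower in HSC3 cells, and DOX-treated HSC3 cells, at 3.69 CPM per kilobase, remained below DOX-treated CAL27 cells, at 4.55.

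IL11 encodes interleukin-11, a cytokine known for its part in fibrosis and in haematopoiesis. The gene lies on chromosome 19 from 55364382 to 55370463, on the minus strand. It was the least abundant of the 4 cytokines in CAL27 cells, at 0.198, 0.287 and 0.173 CPM with vehicle and 0.615, 0.386 and 0.530 CPM with DOX. The groups did not overlap, and IL11 rose 2.34-fold (log2 fold change 1.23, SE 0.35, edgeR adjusted p = 0.0067) on counts of 19 to 28 and 36 to 62. These counts stand for an estimated 7.76 to 10.6 and 12.6 to 21.1 molecules. In HSC3 cells IL11 was at 1.53, 1.32 and 1.06 CPM with vehicle and at 0.509, 0.407 and 0.842 CPM with DOX, so that every DOX library was below every vehicle library. The log2 fold change was -1.15 (SE 0.35, edgeR adjusted p = 0.030), and the DOX counts of 60 to 112 stand for an estimated 4.88 to 9.92 molecules. The HSC3 fall did not pass the test without vehicle replicate 1 (edgeR adjusted p = 0.13), vehicle replicate 2 (0.096), vehicle replicate 3 (0.0502) or DOX replicate 2 (0.083), nor with the replicate number as a block (0.054).

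CLCF1 encodes cardiotrophin-like cytokine factor 1, a ligand of the CNTFR complex. The gene lies on chromosome 11 from 67364168 to 67374177, on the minus strand. In CAL27 cells CLCF1 was at 5.84, 4.99 and 5.04 CPM with vehicle and at 8.29, 7.87 and 9.25 CPM with DOX. The groups were apart, and CLCF1 rose 1.60-fold (log2 fold change 0.68, SE 0.094, edgeR adjusted p = 5.7e-06). In HSC3 cells CLCF1 was at 7.72, 9.17 and 8.20 CPM with vehicle and at 5.52, 8.61 and 8.34 CPM with DOX. The HSC3 groups overlapped, and DOX replicate 1 was the lowest library. The log2 fold change of CLCF1 in HSC3 cells was -0.16 (95% interval -0.54 to 0.22, edgeR adjusted p = 0.57), and 0.019 without DOX replicate 1. A readthrough gene on the same strand shares 3.32% of its exon positions.

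**Figure D3:**
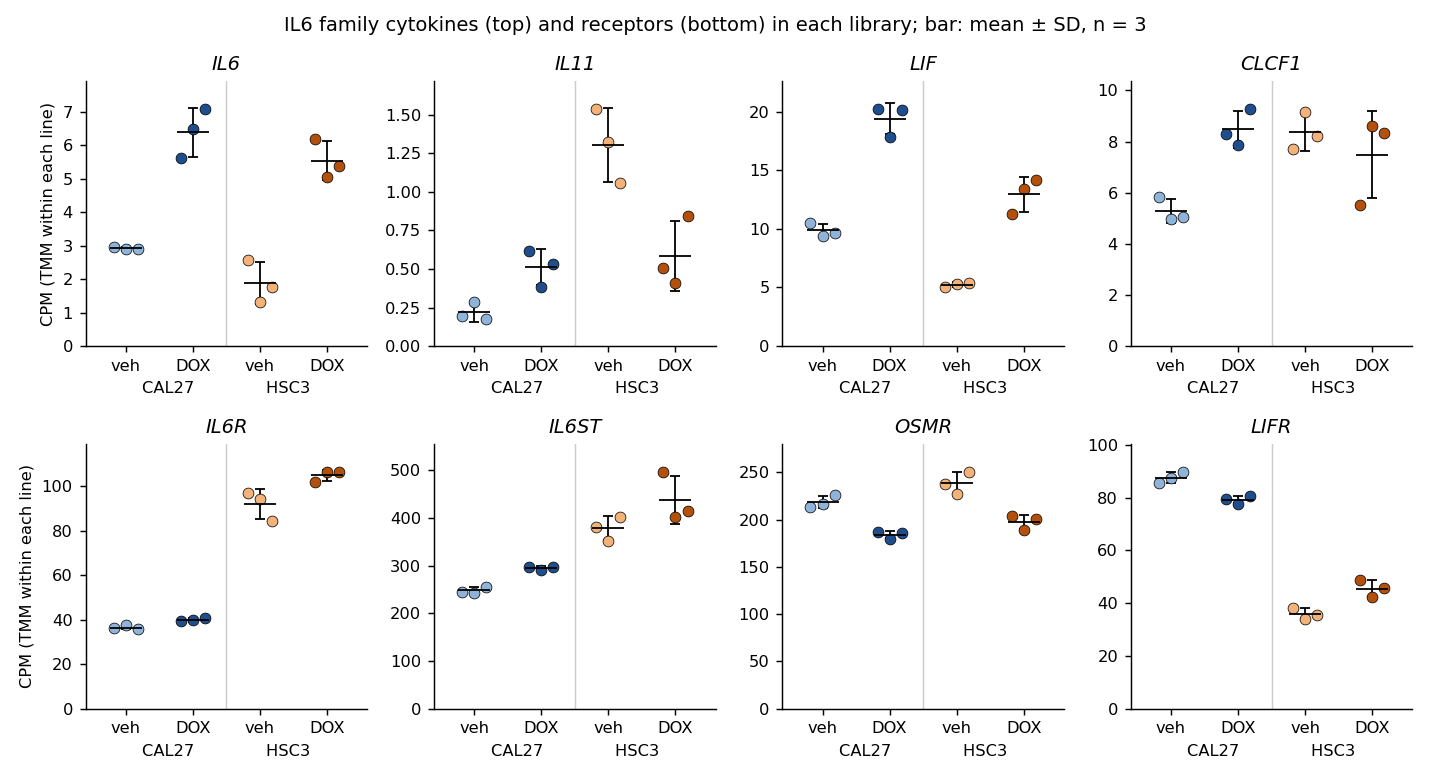
TMM-normalized CPM of the 8 genes in each library, scaled within each cell line, with the mean and SD of the 3 libraries of a group. IL6 and LIF are separated in both lines, and the HSC3 libraries of CLCF1 and IL6ST overlap.

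The log2 fold changes of the 4 receptor genes were at most 0.34 in size in either line. IL6ST, which encodes gp130, lies on chromosome 5 from 55935095 to 55995022, on the minus strand. In CAL27 cells IL6ST was at 246, 243 and 255 CPM with vehicle and at 297, 290 and 297 CPM with DOX. These groups did not overlap, and IL6ST rose 1.19-fold (log2 fold change 0.25, SE 0.037, edgeR adjusted p = 1.3e-05). In HSC3 cells IL6ST was at 382, 353 and 402 CPM with vehicle and at 496, 401 and 415 CPM with DOX. In HSC3 cells DOX replicate 2 was below the highest vehicle library, and DOX replicate 1 was the highest of all. The log2 fold change of 0.21 (95% interval 0.020 to 0.40) had an edgeR adjusted p of 0.096, which fell to 0.032 in 1 fit of all 12 libraries and to 0.046 without DOX replicate 2. An antisense lncRNA shares 6.61% of the exon positions of IL6ST, and the pseudogene IL6STP1 had no more than 104 counts in any library.

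IL6R encodes the IL6-binding chain, which can be shed from the membrane. The gene lies on chromosome 1 from 154405193 to 154469450, on the plus strand. In CAL27 cells IL6R was at 36.1, 37.4 and 35.9 CPM with vehicle and at 39.3, 39.7 and 40.6 CPM with DOX. The difference was small, with a log2 fold change of 0.13 (SE 0.046, edgeR adjusted p = 0.027), although the groups did not overlap. It did not pass the test in 1 fit of all 12 libraries (edgeR adjusted p = 0.12), nor without CAL27 vehicle replicate 1 (0.11), vehicle replicate 2 (0.065), vehicle replicate 3 (0.13) or the DOX library numbered 5 (0.062). In HSC3 cells IL6R was at 96.9, 94.4 and 84.5 CPM with vehicle and at 102, 106 and 106 CPM with DOX. The HSC3 groups did not overlap either, and the log2 fold change was 0.19 (95% interval 0.036 to 0.34, edgeR adjusted p = 0.066). It passed the test in HSC3 cells with DESeq2 (adjusted p = 0.036), with counts divided by counts per molecule (edgeR adjusted p = 0.048), in 1 fit of all 12 libraries (0.014) and without DOX replicate 1 (0.0097).

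OSMR and LIFR encode the chains that pair with gp130 for oncostatin M and for LIF. They lie on the same arm of chromosome 5, LIFR from 38474668 to 38608354 on the minus strand and OSMR from 38845858 to 38945596 on the plus strand, with 237503 bases between them. OSMR was at 213, 217 and 226 CPM with vehicle and at 187, 180 and 186 CPM with DOX in CAL27 cells. The HSC3 line had OSMR at 238, 227 and 250 CPM with vehicle and at 203, 189 and 200 CPM with DOX. In each line every DOX library was below every vehicle library. The log2 fold change of OSMR was -0.25 (SE 0.038, edgeR adjusted p = 1.8e-05) in CAL27 cells and -0.27 (SE 0.062, edgeR adjusted p = 0.0072) in HSC3 cells. RICTOR, whose annotated exons share 3.19% of those of OSMR on the opposite strand, had log2 fold changes of -0.26 (edgeR adjusted p = 1.4e-05) and -0.19 (edgeR adjusted p = 0.12) in the CAL27 and HSC3 lines. These overlapping genes were named after their values were seen.

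LIFR went in opposite directions. In CAL27 cells LIFR was at 85.6, 87.4 and 89.7 CPM with vehicle and at 79.5, 77.7 and 80.5 CPM with DOX. In HSC3 cells LIFR was at 38.2, 34.1 and 35.5 CPM with vehicle and at 48.7, 42.3 and 45.7 CPM with DOX. DOX libraries were all below the vehicle libraries in CAL27 cells and all above them in HSC3 cells. The log2 fold change was -0.14 (SE 0.039, edgeR adjusted p = 0.0053) in CAL27 cells and 0.34 (SE 0.083, edgeR adjusted p = 0.010) in HSC3 cells. The CAL27 fall did not pass the test in 1 fit of all 12 libraries (edgeR adjusted p = 0.13), nor the HSC3 rise without vehicle replicate 2 (0.0645). LIFR-AS1, an antisense gene that shares 5.17% of the exon positions of LIFR, had 157 to 217 counts with vehicle and 96 to 134 with DOX in CAL27 cells, so that it fell by 0.56 (edgeR adjusted p = 0.021). In HSC3 cells LIFR-AS1 had 12 to 32 counts with vehicle and 58 to 111 with DOX, a log2 fold change of 1.55 (edgeR adjusted p = 0.049). The TruSeq Stranded mRNA kit marks strand, but how the counting used it is not given in the sources used here, so reads of the antisense partners cannot be told apart from those of LIFR, IL6, LIF, IL6ST or OSMR where exons overlap.

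The difference between the lines was tested as the interaction of line and DOX, and 3 of the 8 genes passed, against 20.6% of all 20694 genes. Of these 1 was higher, where 8.25% of all genes were, and 2 were lower, where 12.3% were. IL11 alone also passed FC>2, where 3.02% of all genes were lower and 2.19% higher. The HSC3 response minus the CAL27 response was -2.38 for IL11 (SE 0.51, edgeR adjusted p = 0.0035), -0.84 for CLCF1 (SE 0.21, edgeR adjusted p = 0.010) and 0.49 for LIFR (SE 0.089, edgeR adjusted p = 0.000998). For IL6 it was 0.42 (95% interval -0.15 to 0.99, edgeR adjusted p = 0.32), and without HSC3 vehicle replicate 1 it was 0.72 (edgeR adjusted p = 0.039). For LIF it was 0.34 (95% interval 0.036 to 0.63, edgeR adjusted p = 0.11), and without HSC3 DOX replicate 1 it was 0.44 (edgeR adjusted p = 0.011). The 95% intervals ran from -0.17 to 0.13 for OSMR, from -0.11 to 0.23 for IL6R and from -0.26 to 0.18 for IL6ST. None of these genes passed the test. For IL6R and IL6ST the intervals reached values as large in size as the response in either line, so equal responses were not shown.

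Ratios of receptor chains within a library do not depend on any scaling between libraries. Counts per kilobase of OSMR were 1.46 to 1.499 times those of IL6ST in the CAL27 vehicle libraries and 1.04 to 1.06 times in the DOX libraries. In HSC3 cells the OSMR to IL6ST ratio was 1.05 to 1.08 with vehicle and 0.689 to 0.811 with DOX. The ratio was thus lower in every DOX library of each line. The LIFR to OSMR ratio was 0.235 to 0.238 with vehicle and 0.251 to 0.255 with DOX in CAL27 cells, and 0.0838 to 0.0948 and 0.132 to 0.141 in HSC3 cells, higher with DOX in both. The LIFR to IL6ST ratio was 0.346 to 0.356 with vehicle and 0.265 to 0.269 with DOX in CAL27 cells, while the HSC3 libraries overlapped, at 0.0877 to 0.0992 and 0.0974 to 0.109. The IL6R to IL6ST ratio overlapped between vehicle and DOX in HSC3 cells, at 0.363 to 0.462 and 0.355 to 0.457. In the CAL27 line it was 0.243 to 0.265 with vehicle and 0.228 to 0.236 with DOX.

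**Figure D4:**
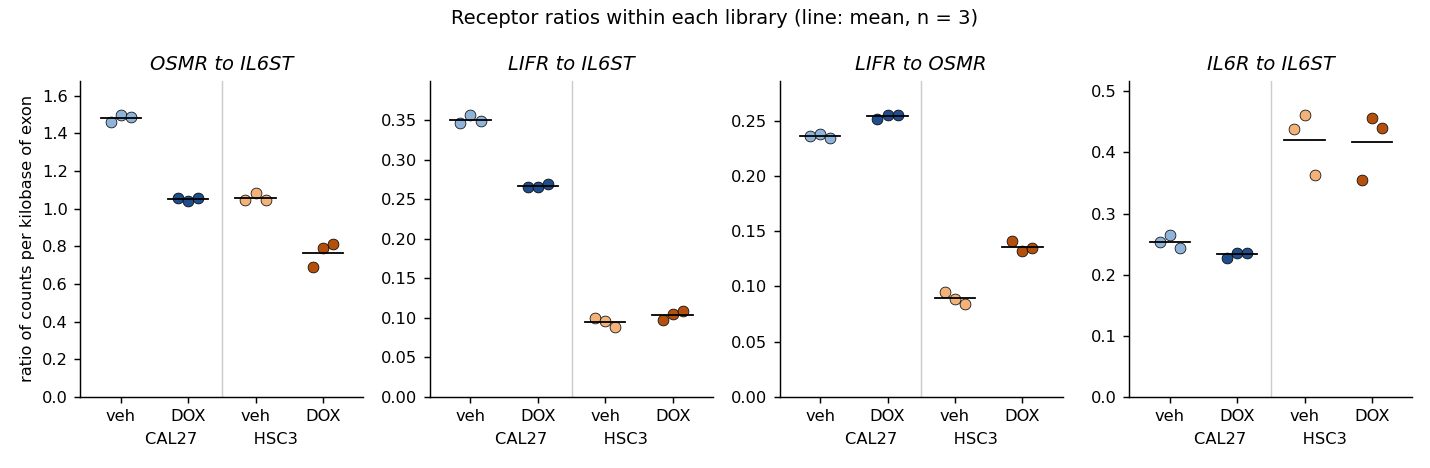
Ratio of counts per kilobase of exon between receptor chains within each library, with the group mean as a line. The OSMR to IL6ST ratio is lower with DOX in both lines, and the LIFR to OSMR ratio is higher with DOX in both.

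The rest of the pathway was described with 64 further genes in 7 lists. In CAL27 cells 56 were tested, of which 14 rose (25.0%, against 22.6% of all genes) and 27 fell (48.2%, against 21.8%), with a median log2 fold change of -0.15. In HSC3 cells 52 were tested, of which 8 rose (15.4%, against 13.0%) and 10 fell (19.2%, against 15.4%), with a median of 0.028.

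OSM had at most 6 counts in any CAL27 library and none in the HSC3 libraries, and IL27 and IL31 had at most 2 counts, so that these 3 cytokines were tested in neither line. Of the 4 other cytokines tested in CAL27 cells CNTF alone rose, where 22.6% of all genes did, with a log2 fold change of 0.51 (edgeR adjusted p = 0.035). Of the 3 tested in HSC3 cells CTF1, which encodes cardiotrophin-1, alone rose, where 13.0% of all genes did. CTF1 went from 8.68 ± 0.784 to 19.3 ± 0.719 CPM (mean ± SD, n = 3), with the log2 fold change at 1.15 (edgeR adjusted p = 1.7e-05). In CAL27 cells CTF1 had a log2 fold change of -0.0063, and the difference between the lines was 1.16 (edgeR adjusted p = 2.6e-04). IL31RA, which pairs with OSMR to form the IL31 receptor, rose in CAL27 cells from 4.95 ± 0.680 to 13.5 ± 1.28 CPM (mean ± SD, n = 3), a log2 fold change of 1.46 (edgeR adjusted p = 7.0e-10), and had a log2 fold change of -0.023 in HSC3 cells, where it was higher at baseline. IL27RA fell in HSC3 cells, with a log2 fold change of -1.44 (edgeR adjusted p = 3.2e-04). IL11RA, the receptor for IL11, fell in CAL27 cells at -0.70 (edgeR adjusted p = 0.025) and had -0.82 in HSC3 cells (edgeR adjusted p = 0.32), on no more than 90 counts in any library. CNTFR had at most 6 counts in any library.

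STAT3, the main transducer, was in CAL27 cells at 392 ± 1.04 (SD, n = 3) CPM with vehicle and 371 ± 8.43 with DOX, at a log2 fold change of -0.081 (edgeR adjusted p = 0.082), and at 247 ± 5.13 and 251 ± 13.5 in HSC3 cells, a log2 fold change of 0.025 (edgeR adjusted p = 0.81). Among the other JAK-STAT transducers, STAT5A (-0.78), GAB1 and TYK2 (-0.15) fell in CAL27 cells, and PTPN11, a phosphatase that docks on gp130, rose at 0.44, GRB2 at 0.17 and STAT5B at 0.12. In HSC3 cells JAK2 fell at -0.51 and STAT5B rose at 0.51. GAB1, an adaptor, fell at -0.25 in CAL27 and rose at 0.46 in HSC3 cells, with a difference of 0.72 (edgeR adjusted p = 2.4e-04).

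SOCS3, the feedback inhibitor that binds gp130, rose in both lines. In CAL27 cells it went from 17.3 ± 1.11 to 22.0 ± 1.67 CPM (mean ± SD, n = 3), a log2 fold change of 0.35 (edgeR adjusted p = 2.5e-04), and in HSC3 cells from 13.9 ± 0.499 to 32.1 ± 1.04 CPM (mean ± SD, n = 3), a log2 fold change of 1.21 (edgeR adjusted p = 2.4e-06). The SOCS3 responses differed by 0.86 (edgeR adjusted p = 4.2e-05). Of the 7 feedback inhibitors, 3 rose and 2 fell in CAL27 cells, where 22.6% and 21.8% of all genes did. Besides SOCS3 these were SOCS2 at 0.41, PTPN2 at 0.18, SOCS1 at -1.52 and PTPN6 at -0.23. In HSC3 cells 2 rose, SOCS3 and SOCS2, the latter at 0.23, and none fell, against 13.0% and 15.4% of all genes. The 3 genes for receptor shedding included 2 that fell in CAL27 cells, against 21.8% of all genes. They were RHBDF2 at -0.35 and ADAM17, which cleaves IL6R, at -0.15. None of the 3 passed the test in HSC3 cells, where 28.4% of all genes did.

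Of the 5 regulators of IL6 mRNA, 3 fell in CAL27 cells, where 21.8% of all genes did. None passed the test in HSC3 cells, where 28.4% of all genes did. In CAL27 cells NFKBIZ, a nuclear cofactor that promotes transcription of IL6, fell at -0.94 (edgeR adjusted p = 8.2e-11), ZC3H12A, which encodes the RNase Regnase-1 that degrades IL6 mRNA, at -0.89 (edgeR adjusted p = 6.5e-10), and RC3H1, which encodes Roquin-1, at -0.20 (edgeR adjusted p = 2.6e-04). In HSC3 cells the log2 fold changes were 0.12, 0.26 and 0.14. The difference between the lines passed the test for all 3, at 1.07 (edgeR adjusted p = 3.6e-05) for NFKBIZ, 1.16 (edgeR adjusted p = 5.8e-06) for ZC3H12A and 0.34 (edgeR adjusted p = 0.029) for RC3H1.

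Among STAT3 target and acute phase genes, 15 of 23 fell and 6 rose in CAL27 cells, where 21.8% and 22.6% of all genes did, with a median log2 fold change of -0.42. In HSC3 cells 7 of 20 fell and 3 rose, against 15.4% and 13.0% of all genes, with a median of -0.19. The largest falls of the list in CAL27 cells were in the acute phase genes SAA2 at -1.99 (edgeR adjusted p = 9.1e-06), SERPINA3 at -1.98 (edgeR adjusted p = 0.0058) and SAA1 at -1.51 (edgeR adjusted p = 0.011). SERPINA3 had only 24 to 44 counts with vehicle and 2 to 14 with DOX there, the latter an estimated 0.682 to 4.88 molecules. SAA1 and SAA2 are near-identical, so their reads could have been split between them. In HSC3 cells LCN2, which encodes an iron-sequestering protein, fell from 17.0 ± 5.90 to 2.17 ± 0.446 CPM (mean ± SD, n = 3), a log2 fold change of -2.97 (edgeR adjusted p = 7.8e-06), NNMT fell by 1.56 and the repressor BCL6 rose by 0.75. LCN2, NNMT, CEBPB and MCL1 fell in both lines and CCND1, the cyclin D1 gene, rose in both, at 1.39 and 0.55. BCL6 and HIF1A fell in CAL27 and rose in HSC3 cells, and PIM1 and IL4R did the opposite.

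**Figure D5:**
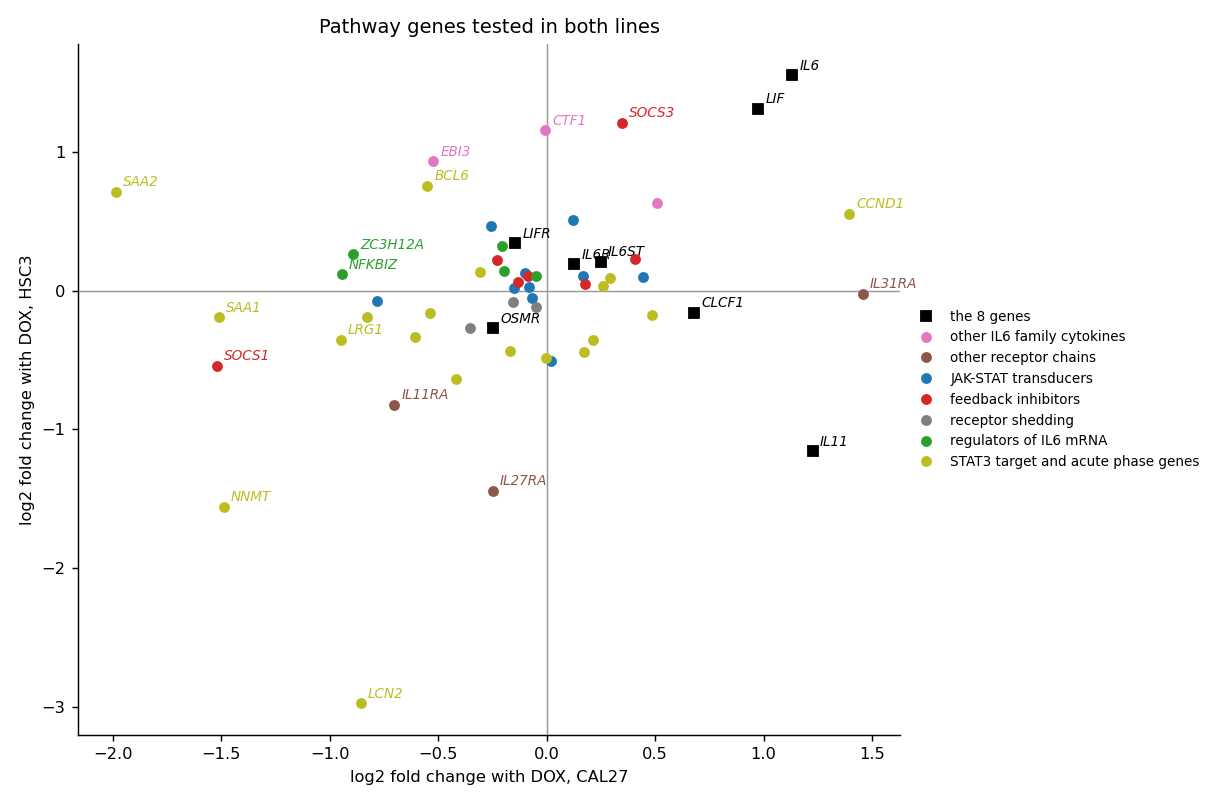
Log2 fold change with DOX in CAL27 cells (horizontal axis) and HSC3 cells (vertical axis) for the 8 genes (squares) and other pathway genes tested in both lines (circles, coloured by list), with names for those with the larger changes. IL6, LIF, SOCS3 and CCND1 are in the upper right, and IL11 is in the lower right.

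Genes with the pattern most like that of IL6, LIF and IL6ST were sought over the 12 libraries, after each library was centred on the mean of its cell line, among genes whose log2 CPM averaged 3 or more in each line. For IL6 they were SPATA13 (Pearson's r = 0.990), JADE3 (0.981) and NAPB (0.978). For LIF they were KCTD10 (r = 0.996), STK40 (0.994) and GPRC5A (0.991), whose log2 fold changes were 0.28, 0.65 and 1.03 in the CAL27 line and 0.41, 0.93 and 1.51 in the HSC3 line. For IL6ST they were ZNF639 (r = 0.975), NR3C1 (0.974), which encodes the glucocorticoid receptor, and TMEM245 (0.973). IL6 and LIF correlated with each other at r = 0.924, and LIF and OSMR at r = -0.934. All these points share their libraries and the split by DOX, so the correlations describe that split and carry no test.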

How the data were processed

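RNA-seq was performed on 12 libraries from CAL27 and HSC3 cells with tet-MUC1shRNA, prepared with the TruSeq Stranded mRNA kit. Per the submitters' processing notes, reads were aligned with STAR 2.7.9a to GRCh38 and counted with featureCounts (Subread 2.0.1). The study's methods give the genome with a release number. They do not name the annotation used for counting, and the strand setting and the handling of duplicates are not given in the sources used here. The authors deposited whole-number counts per gene symbol, without normalization, in 1 table for each line. Columns of the CAL27 DOX libraries are numbered 4 to 6 and match no sample number, so they were assigned to the group only.

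Counts were analysed in R 4.3.3 with edgeR 4.0.16 (filterByExpr defaults of 10 counts and 15 in total, TMM, glmQLFit with robust estimation, glmQLFTest). Each line was fitted alone for DOX, and all 12 libraries together for the interaction and for the baseline. The threshold was an adjusted p under 0.05 by Benjamini-Hochberg, over every gene tested. SEs were derived from the F statistic of each gene. Scripts were tested on simulated data. Replicate pairs differed beyond counting noise in all 12 pairs (chi-square per degree of freedom 6.35 to 119), and each library was counted as 1 replicate. Counts per molecule were estimated from genes with an expected count of 8 to 16 that had no count. This estimate takes replicates as alike, so differences between them can raise it. It was highest in HSC3 DOX replicate 1, which differed most from its replicates (chi-square per degree of freedom 119 and 79.6). Gene positions and exon lengths are from GENCODE v44 on GRCh38, promoters from RefSeq.

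The 8 genes and the lists were chosen with earlier results of these data known. Named genes are the 8, MUC1, the 3 largest changes past the test of each list in each line, and the 3 genes most like IL6, LIF and IL6ST. Other genes of the lists, the marker genes and the overlapping genes were named after their values were seen. Alternatives were DESeq2 1.42.0 and its size factors, library totals, no filter, counts divided by counts per molecule, FC>2, 1 joint fit, vehicle libraries alone, the replicate block, and each library left out. In HSC3 cells no pairing of the libraries by replicate number was seen, and the labels do not say whether the cultures were paired. Some genes of the lists are counted in the totals but not reported here by name.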

Additional observations from a re-analysis of the deposited data

Results flagged for a closer look

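The response to DOX differed between the cell lines for 3 of the 8 genes in a test of the interaction. The HSC3 response minus the CAL27 response was -2.38 on the log2 scale for IL11, which had 60 to 112 counts in the HSC3 DOX libraries. It was -0.84 for CLCF1, and -0.64 to -0.95 over 17 alternatives with an adjusted p (edgeR or DESeq2) of at most 0.036. For LIFR, where every DOX library was below the vehicle libraries in CAL27 cells and above them in HSC3 cells, it was 0.49, and 0.45 to 0.55 over 17 alternatives with an adjusted p (edgeR or DESeq2) of at most 0.0044. For IL11 the adjusted p was at most 0.015 over its 17 alternatives. The antisense gene LIFR-AS1 had a difference in the same direction as LIFR, at 2.09 (edgeR adjusted p = 0.0059).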

How the results depend on the processing

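Each of the 8 genes in each of the 4 comparisons was computed again under 12 to 18 alternatives, 480 values in all. Of these, 448 kept their direction and their side of the threshold, 12 no longer passed the test, 10 passed it newly and 10 changed sign, none of which had passed the test. The rises of IL6 and LIF and the fall of OSMR passed the test in both lines under every one of these alternatives, which leave out the FC>2 threshold given below. The losses were in IL6R and LIFR in CAL27 cells and in IL11 and LIFR in HSC3 cells. The changes of sign came in leave-one-out fits, for CLCF1 in HSC3 cells (-0.27 to 0.019) and, in the difference between the lines, for IL6ST (-0.13 to 0.023, above 0 in 3 fits) and OSMR (-0.053 to 0.030, above 0 in 6). Their cause was not tested. With FC>2 required as well, 2 genes passed in CAL27 cells, 3 in HSC3 cells, 1 in the difference and 3 at baseline, in place of 8, 5, 3 and 7, since the threshold is stricter. Leaving out 1 library gave 7 to 8, 3 to 6, 3 to 4 and 7 to 8 genes, and the 3 in HSC3 cells came without vehicle replicate 2. With the replicate block 4 genes passed in HSC3 cells. Same-numbered HSC3 libraries had correlations of -0.025, 0.046 and -0.0064 in their deviations from the group means. No pairing by number was thus seen, which does not show that the cultures were unpaired. In CAL27 cells the columns carry no shared numbers. The counts of listed pathway genes stayed within 1.5 times under the other scalings and DESeq2. The number of molecules limits IL11 most. Its counts stand for an estimated 4.88 to 9.92 molecules in the HSC3 DOX libraries and 7.76 to 10.6 in the CAL27 vehicle libraries.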
